A study of Mus musculus with 6 samples.

Results

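The genes examined here encode the machinery that displays peptides to helper T cells on major histocompatibility complex (MHC) class II molecules. They were taken as a list of 10 mouse genes, out of 22815 genes with a symbol on the array, and found through the transcript accession of each probe. All 10 had at least 1 probe, 15 probes in all of 56605 besides controls. The arrays measured transcripts in whole hearts of male C57BL6 mice aged 10 weeks. Every mouse was starved for 16 h and received 20 mg/kg lipopolysaccharide (LPS), the bacterial endotoxin, into the peritoneum. The 3 rhTM mice then received recombinant human thrombomodulin, a drug made from the part of an endothelial receptor for thrombin that lies outside the cell, at 3 h and 24 h. The 3 saline mice received saline at those times, and hearts were taken at 30 h after LPS. Each comparison therefore sets rhTM against saline in LPS-treated mice, and no heart without LPS was analysed here.

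Class II molecules are pairs of an alpha and a beta chain made mainly by dendritic cells, macrophages and B cells. The new pairs travel to endosomes bound to the invariant chain, encoded by Cd74, which proteases such as cathepsin S, encoded by Ctss, cut down to a small peptide plug. H2-DM, a pair of H2-DMa and H2-DMb1 chains, exchanges that plug for foreign peptide, and H2-O, a pair of H2-Oa and H2-Ob chains, inhibits H2-DM. Ciita is the transactivator that switches these genes on, and it binds no DNA itself but the factors RFX, CREB and NF-Y on a shared promoter module of X and Y boxes. In the heart, class II molecules are carried mainly by resident and recruited macrophages and dendritic cells.

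Promoter sequence is shown here because most of these genes are known to share that module. The RefSeq promoter table of build GRCm38.p6 held 8 windows of 300 bases around a start of 7 of the genes. The 150 bases before the start of 6 genes follow, 5′ to 3′ on the gene's strand. Capitals mark GATTGG or its reverse complement (the Y box), TGACGTCA (a cAMP response element) and the X1 box or its core, which is the capital run before the Y box in H2-Eb1, H2-DMb1 and H2-Oa.
H2-Aa, chr17:34287824-34287973, minus strand: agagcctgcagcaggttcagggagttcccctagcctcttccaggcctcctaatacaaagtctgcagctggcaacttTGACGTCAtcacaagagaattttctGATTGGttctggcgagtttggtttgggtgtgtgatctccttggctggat
H2-Eb1, chr17:34305717-34305866, plus strand: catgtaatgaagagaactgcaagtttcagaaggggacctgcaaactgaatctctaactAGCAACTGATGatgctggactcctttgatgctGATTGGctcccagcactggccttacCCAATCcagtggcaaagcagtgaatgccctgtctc
H2-DMb1, chr17:34153041-34153190, plus strand: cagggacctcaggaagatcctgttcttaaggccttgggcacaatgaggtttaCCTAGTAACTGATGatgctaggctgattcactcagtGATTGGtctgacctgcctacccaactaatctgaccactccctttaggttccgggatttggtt
H2-Oa, chr17:34092229-34092378, plus strand: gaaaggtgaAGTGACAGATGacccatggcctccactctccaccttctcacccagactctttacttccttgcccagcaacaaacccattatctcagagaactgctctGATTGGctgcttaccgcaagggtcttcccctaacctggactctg
H2-Ob, chr17:34238755-34238904, plus strand: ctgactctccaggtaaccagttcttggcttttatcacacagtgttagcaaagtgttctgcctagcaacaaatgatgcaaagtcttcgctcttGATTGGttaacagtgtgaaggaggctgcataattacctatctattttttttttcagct
Ctss, chr3:95526636-95526785, plus strand: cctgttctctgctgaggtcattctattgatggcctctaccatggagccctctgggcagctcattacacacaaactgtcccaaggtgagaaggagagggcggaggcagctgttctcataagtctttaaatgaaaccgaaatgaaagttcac
On both strands, GATTGG was found in 6 of the 8 windows of class II genes and in 16.1% of all 32851 windows. The whole X1 box matched 1 of the 8, that of H2-DMb1, and 0.0609% of all. Its core, the box without its leading bases and chosen after the sequences were seen, matched 3 of the 8 (H2-Eb1, H2-DMb1 and H2-Oa) and 0.968% of all. TGACGTCA matched the H2-Aa window and 1.79% of all. TTCNNNGAA, the element bound by STAT factors after interferon gamma, matched 0 of the 8 and 8.3% of all.

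**Figure D1:**
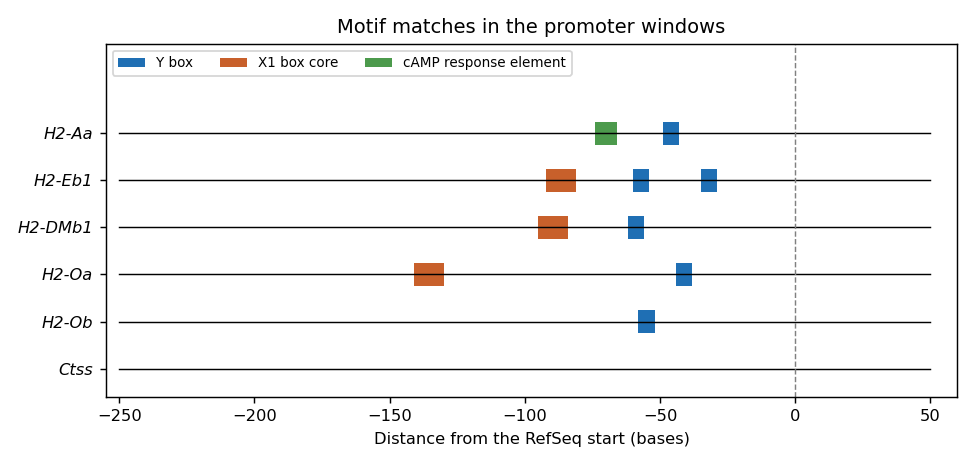
Positions of the motif matches in the 300-base promoter window of 6 genes, with the RefSeq start at 0 on the horizontal axis (bases). Each of the 5 H2 genes drawn has a Y box (blue) that begins 44 to 62 bases before the start, H2-Eb1 has another at 35, an X1 core (orange) lies farther out in H2-Eb1, H2-DMb1 and H2-Oa, and Ctss holds no match.

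The Y box began 49, 60, 62, 44 and 58 bases before the start in H2-Aa, H2-Eb1, H2-DMb1, H2-Oa and H2-Ob. H2-Eb1 held another on the opposite strand 35 bases before its start. H2-DMa, which is not drawn, has 2 windows in the table, of which 1 held a Y box 199 bases before the start and the other none. In H2-Eb1 and H2-DMb1 the X1 core began 92 and 95 bases before the start, and in H2-Oa it began 141 bases before. The plot of motif positions shows this order, X1 core before Y box, in the 3 genes that hold both. Core and Y box lie farther apart in H2-Oa (141 and 44) than in H2-Eb1 (92 and 60) or H2-DMb1 (95 and 62). The order therefore does not show a shared spacing, and whether the H2-Oa core belongs to the module was not tested. A match describes letters and does not show that a factor bound.

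In the array data, the transactivator and the antigen-binding chains had higher values on every rhTM array than on any saline array, with changes of 3.57-fold to 6.22-fold, but each lay near the threshold of the test. Ciita was the single gene of the 10 called higher (limma adjusted p = 0.0379), and it entered the test only through the rhTM arrays, where it was high. Its call was lost with no filter on dim probes (adjusted p = 0.0727), with a slide term (0.0764) and with a replicate term (0.0557). Values are on a log2 scale on which 0 is the 75th percentile of the array's signals and 1 unit is a factor of 2. Changes are rhTM minus saline with the standard error (SE) of a limma fit over 14701 genes, 3 arrays against 3, with p-values adjusted by Benjamini-Hochberg over all of them. Of the 10 genes 9 passed the filter on dim probes, which asked that each of the 3 arrays of rhTM or of saline read the probe well above background. Ciita, H2-DMa and H2-Ob passed it through the rhTM arrays alone, a choice that favours a higher value in rhTM. The remaining gene, H2-Oa, stayed near background on each of the 6 arrays.

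Signal was well above background at 54.8% to 62.8% of 59305 spots per array, and no spot was saturated. Saline 1 and 2 lay on slide 1 and saline 3 on slide 2 with all rhTM arrays, each slide with a scan of its own. The rhTM mean minus saline 3 is therefore the comparison within a slide, and it rests on 1 saline array. All 10 cardiomyocyte markers were well above background in both groups. In whole hearts, fewer cells of a type and less RNA per cell cannot be told apart.

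Ciita, the transactivator, read -2.48, -1.53 and -2.62 in rhTM 1, 2 and 3, against -5.26, -5.29 and -3.98 in saline 1, 2 and 3. All rhTM arrays lay above all saline arrays. On the linear scale of the scanner's processed signal these were 83.1, 162 and 67.2 units in rhTM hearts, against 19.1, 17.1 and 25.0 units in saline hearts. Saline 3 was the single saline array on which the probe was well above background, so that the size of the change depends on background. Ciita rose by 2.64 ± 0.46, or 6.22-fold (limma adjusted p = 0.0379), and by 1.77 ± 0.45, or 3.42-fold, against saline 3 (1 array). The call was also lost without saline 1, saline 2, rhTM 1 or rhTM 2 (adjusted p 0.0979 to 0.172) and held without saline 3 (0.00448) or rhTM 3 (0.0461). With normexp background correction the change was 0.82 (adjusted p = 0.170). The gene's other probe stayed near background on every array.

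**Figure D2:**
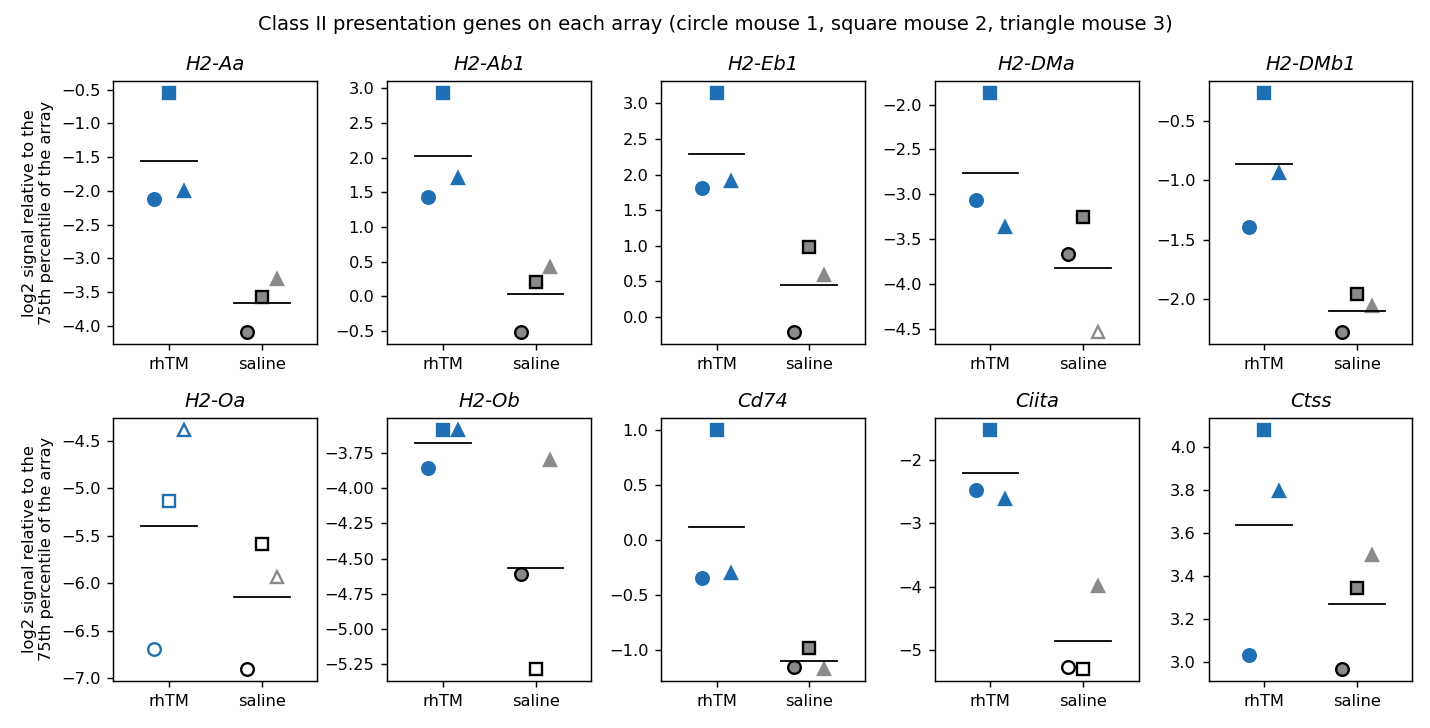
Log2 signal relative to the 75th percentile of the array (vertical axes, a separate scale per gene) for the 10 genes on each array, rhTM left and saline right. Lines are group means, black edges mark saline 1 and 2 on slide 1, and open symbols were not well above background. The rhTM square (mouse 2) is the highest array in all 9 genes tested.

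H2-Ab1 encodes the beta chain of the A molecule, the class II pair that C57BL6 mice display. It read 1.43, 2.93 and 1.71 in rhTM hearts, against -0.52, 0.20 and 0.42 in saline hearts. The groups did not overlap, and rhTM 2 was the highest array. The change was 1.99 ± 0.45, or 3.98-fold, and missed the threshold (limma adjusted p = 0.0549). It was 1.61 against saline 3 (adjusted p = 0.162 with a slide term), and H2-Ab1 passed once the replicate number was a term (adjusted p = 0.0489). The 3 other probes of H2-Ab1 changed by 2.10, 1.66 and 1.64, so that its 4 probes lay in the same direction. With normexp background correction the change of H2-Ab1 was 1.84 and was called (adjusted p = 0.0457).

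H2-Aa encodes the alpha chain that pairs with it. It read -2.12, -0.55 and -2.00 in rhTM hearts, against -4.09, -3.57 and -3.31 in saline hearts, again without overlap. The change of 2.10 ± 0.46, or 4.28-fold, missed the threshold (limma adjusted p = 0.0528), and it was 1.75 against saline 3 (adjusted p = 0.150 with a slide term). With normexp background correction the change of H2-Aa was 1.04 (adjusted p = 0.132), while in a fit limited to genes that all 6 arrays detected H2-Aa was called (adjusted p = 0.0497).

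H2-Eb1 encodes the beta chain of the E molecule. In C57BL/6 mice its alpha partner gene is not expressed, so that the E pair does not reach the surface, while the beta chain is still transcribed. H2-Eb1 read 1.81, 3.14 and 1.91 in rhTM hearts, against -0.21, 0.98 and 0.59 in saline hearts. The groups did not overlap. The change was 1.84 ± 0.46, or 3.57-fold (limma adjusted p = 0.0685), and 1.70 against saline 3 (adjusted p = 0.168 with a slide term). With a replicate term H2-Eb1 passed (adjusted p = 0.0409).

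Cd74, the invariant chain, read -0.34, 1.00 and -0.30 in rhTM hearts, against -1.15, -0.98 and -1.17 in saline hearts. The saline arrays lay within a narrow range and below every rhTM array. The change was 1.22 ± 0.38, or 2.32-fold, and was not called (limma adjusted p = 0.101). It was 1.29 against saline 3. Ctss, the protease that trims the invariant chain, read 3.03, 4.08 and 3.79 in rhTM hearts, against 2.97, 3.34 and 3.50 in saline hearts, with overlap between the groups. Its change was 0.37 ± 0.32, or 1.29-fold (limma adjusted p = 0.451), and 0.14 against saline 3. Whether the changes of Ctss and the chain genes differ from each other was not tested.

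Of the H2-DM pair, which loads peptide, H2-DMb1 read -1.39, -0.26 and -0.93 in rhTM hearts, against -2.28, -1.96 and -2.06 in saline hearts. The groups did not overlap, and the change was 1.23 ± 0.31, or 2.35-fold (limma adjusted p = 0.0687; 1.19 against saline 3). With normexp background correction the change of H2-DMb1 was 0.74 (adjusted p = 0.134). H2-DMa read -3.07, -1.87 and -3.36 in rhTM hearts, against -3.67, -3.25 and -4.54 in saline hearts. Here rhTM 3 lay below saline 2, and saline 3 was not well above background. The change of H2-DMa was 1.05 ± 0.49, or 2.07-fold (limma adjusted p = 0.196). It was 1.77 against saline 3, whose own value was not well above background, and 0.24 with normexp background correction (adjusted p = 0.660).

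The inhibitor pair H2-O is known mainly from B cells, thymic epithelium and some dendritic cells. H2-Ob read -3.86, -3.59 and -3.59 in rhTM hearts, against -4.61, -5.28 and -3.80 in saline hearts, where saline 2 was not well above background. Saline 3 lay above rhTM 1, so that the groups overlapped. The change of 0.89 ± 0.38, or 1.85-fold, was not called (limma adjusted p = 0.168), and against saline 3 it was 0.13. With normexp background correction it was 0.08, and the gene's other probe stayed near background on every array. H2-Oa read -6.69, -5.13 and -4.38 in rhTM hearts, against -6.90, -5.59 and -5.93 in saline hearts, and no fold is given because none of these signals was well above background.

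**Figure D3:**
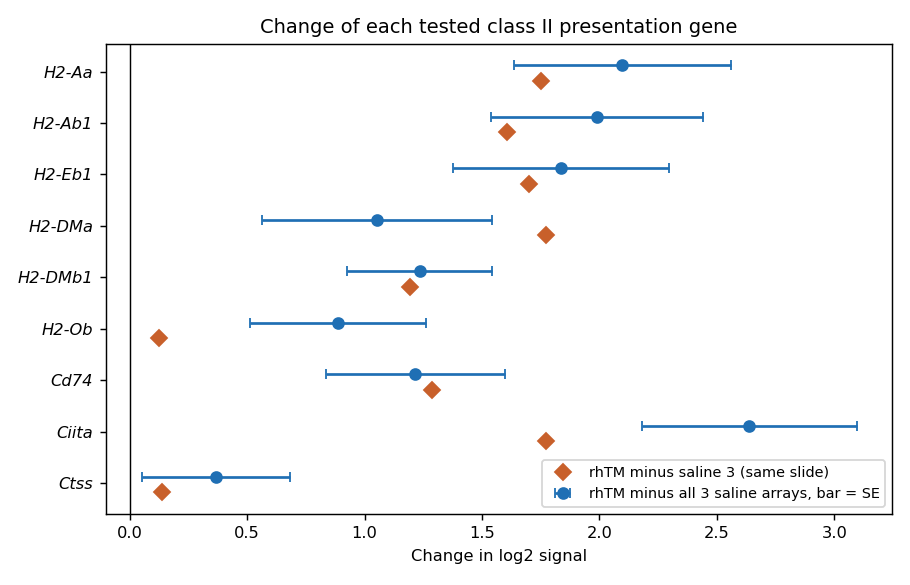
Change in log2 signal (horizontal axis) of the 9 genes tested. Blue points are rhTM minus all 3 saline arrays with the SE of the limma fit as bars, and orange diamonds are rhTM minus saline 3, which shared the slide. All points lie above 0, from 0.13 (H2-Ob, orange) to 2.64 (Ciita, blue).

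Counted over the 9 genes that passed the filter, 1 was called higher, where 2.75% of all genes tested were. None of the 9 was called lower, where 2.41% of all genes were, and 6 had an unadjusted p under 0.05 in limma. Such a p was common over all genes: H2-Ob, at 0.0527 unadjusted in limma, ranked only 4618 by p among the 14701 genes tested. Because Ciita, H2-DMa and H2-Ob were let in by their rhTM values, direction is counted over the 6 genes well above background on all 6 arrays, H2-Aa, H2-Ab1, H2-Eb1, H2-DMb1, Cd74 and Ctss. Every rhTM array exceeded every saline array in 5 of these 6, against 15.3% of the 13538 such genes. Means lay higher in rhTM hearts in 6 of 6, against 48.6%, and above saline 3 in 6 of 6, against 48.6%. The median change of the 6 was 1.54, against -0.02 over all such genes, and 1.45 against -0.02 when taken from saline 3. With a slide term 0 of the 9 were called (3.83% of all genes were called higher), and with a replicate term 2 were, H2-Ab1 and H2-Eb1 (2.43%). Without saline 3, 6 of the 9 were called, but in that fit 2974 of all 14983 genes tested were called higher. Without saline 1, saline 2, rhTM 1 or rhTM 2 none of the 9 was called, and 2 to 55 of all genes were called higher.

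**Figure D4:**
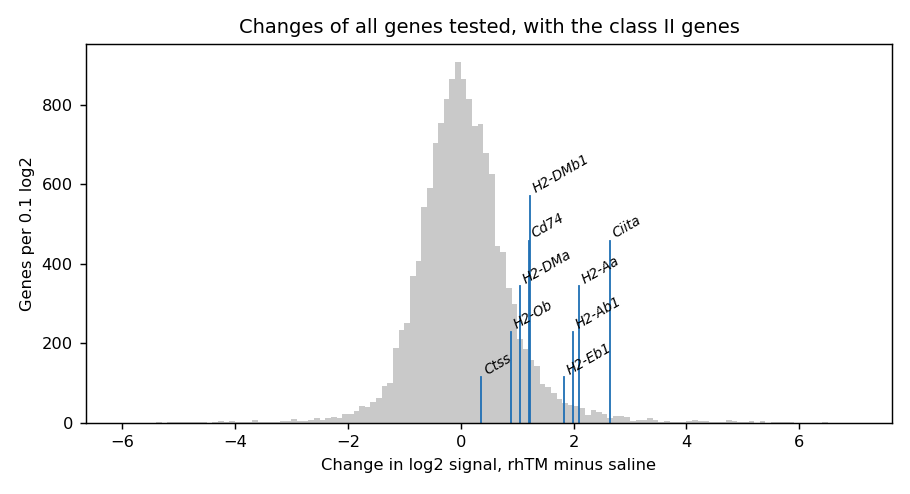
Histogram of the change in log2 signal, rhTM minus saline, of all 14701 genes tested (grey, genes per 0.1 log2), with the 9 class II genes as blue lines of staggered height. Ctss (0.37) lies within the bulk of the genes, and H2-Eb1, H2-Ab1, H2-Aa and Ciita (1.84 to 2.64) lie in its right tail.

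In all 9 genes tested the highest array was rhTM 2, while the lowest was saline 1 in 5, saline 3 in Cd74 and H2-DMa, and saline 2 in Ciita and H2-Ob. In the mean profile of the 6 genes above background on all arrays, rhTM 2 lay 1.51 above the genes' own means, with rhTM 3 at 0.48 and rhTM 1 at 0.19. In that profile saline 1 lay lowest at -1.09, and saline 2 and 3 lay at -0.54 and -0.55. Ranked among all genes by closeness to this profile, H2-DMb1, Cd74, H2-Eb1, H2-Ab1 and H2-Aa stood at positions 1, 2, 5, 9 and 29, but these genes and Ctss make up the profile. H2-DMa, Ctss, H2-Ob and Ciita stood farther off, at positions 447, 960, 1570 and 2880. Without rhTM 2 the changes of the 9 genes were still above 0, though Ciita, H2-DMa and H2-Ob had been let in by their rhTM values.

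The 5 other genes closest to that profile, by the root mean square difference of centred values over the 6 arrays, were Olfr1350 (0.260), Ly86 (0.266), Otulinl (0.286), Kcnk16 (0.292) and Gpr183 (0.292). Ly86 encodes MD-1, a partner of the receptor RP105 on B cells and macrophages. It read 0.79, 1.73 and 0.62 in rhTM hearts, against -1.06, -0.82 and -0.57 in saline hearts, a difference of 1.86 ± 0.33. Gpr183, an oxysterol receptor that guides B cells and dendritic cells, differed by 1.41 ± 0.25. Olfr1350, an odorant receptor, Otulinl and the potassium channel gene Kcnk16 differed by 1.2, 1.35 and 0.95. These genes were picked for likeness to a profile that is itself high in rhTM hearts, so that both their closeness and their differences are descriptions, with no test.

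The factors that occupy the class II promoter module are subunits of RFX, NF-Y and CREB with their coactivators. Of 10 such genes 9 were tested and 0 were called in either direction by limma, with a median change of 0.21, and 0.04 when taken from saline 3. The RFX subunit gene Rfxank differed by 0.51 ± 0.45 (limma adjusted p = 0.461) and was called with a slide term (1.58 above saline 3, adjusted p = 0.0271). The NF-Y subunit Nfyc differed by -0.02 ± 0.41 (limma adjusted p = 0.973) and the coactivator Crebbp by 0.49 ± 0.22 (0.180). Among 10 genes of the interferon gamma route, the main inducer of Ciita in cells other than B cells and dendritic cells, 9 were tested, with 0 called higher and 1 lower. Over all genes tested, 2.75% were called higher and 2.41% lower. At these shares, 0 calls in a list of this size, here or in the lists below, does not set the list apart from all genes. In the interferon gamma list the rhTM mean lay lower in 8 of the 9, and the median change was -0.37, and -0.14 when taken from saline 3. The kinase gene Jak2 fell by 1.01 ± 0.19 (limma adjusted p = 0.0430; 0.0708 with a slide term and 0.0612 with a replicate term), while its other probe differed by 0.53. The receptor genes Ifngr1 and Ifngr2 differed by -0.12 and 0.23 and were not called (limma adjusted p 0.716 and 0.564). Ifng itself, named here after its values were seen, did not clear background on any array.

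Endosomal proteases and their partners other than Ctss were 13 genes, of which 12 were tested. None was called, and the median change was -0.05. Cystatin C, Cst3, an inhibitor of cathepsins, differed by 0.42 ± 0.17 (limma adjusted p = 0.156) and cathepsin B, Ctsb, by -0.10 ± 0.20 (0.745). Genes of class II traffic and turnover gave 0 calls among 10 tested, with a median of -0.08. The endosomal tetraspanin gene Cd63 differed by -0.36 ± 0.34 and the lysosomal membrane gene Lamp1 by -0.07 ± 0.30 (limma adjusted p 0.487 and 0.887). H2-Eb2 and H2-DMb2, further class II chain genes, did not clear background on any array.

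Costimulatory genes, whose products give T cells the second signal beside the class II complex, had 7 of 10 members tested, 1 called higher and 0 lower, and a median of 0.57, and 0.07 when taken from saline 3. Of all genes tested, 2.75% were called higher. The called costimulatory gene was Cd83, a surface protein of mature dendritic cells and activated B cells that holds class II molecules at the surface. Cd83 read -1.23, -0.84 and -2.24 in rhTM hearts, against -4.44, -4.13 and -4.10 in saline hearts. The groups lay far apart, and Cd83 rose by 2.79 ± 0.37, or 6.91-fold (limma adjusted p = 0.0248), and by 2.66 against saline 3 (adjusted p = 0.0543 with a slide term). Cd80 and Cd274 differed by 0.85 ± 0.36 and 0.57 ± 0.22 and were not called (limma adjusted p 0.168 and 0.144). Against saline 3 the change of Cd80 was 0.05, and its other probes differed by -1.21 and 0.17.

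Markers of the cells that carry class II molecules differed unevenly between groups. Of 13 macrophage markers 12 were tested and 1 was called higher, where 2.75% of all genes tested were. The median change was 0.19, and 0.60 when taken from saline 3. The called gene was Cx3cr1, the fractalkine receptor of monocytes and resident macrophages. Cx3cr1 read -0.35, 0.91 and -1.07 in rhTM hearts, against -5.33, -4.00 and -4.38 in saline hearts, where saline 2 was the single array well above background. Like Ciita, it entered the test only through the rhTM arrays. It rose by 4.40 ± 0.57, or 21.1-fold, a size that depends on background (limma adjusted p = 0.0244), and by 4.21 against saline 3 (adjusted p = 0.0549 with a slide term). Its other probe differed by 3.05. The CSF-1 receptor gene Csf1r (0.29 ± 0.31) and the complement gene C1qc (0.29 ± 0.31) were not called (limma adjusted p 0.542 and 0.545). The summed signal of the 13 markers, in multiples of the array's 75th percentile, was 35.0 to 52.0 in rhTM hearts, against 29.2 to 49.9 in saline hearts. These ranges overlapped, and the part of macrophage numbers in the class II values was not tested.

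**Figure D5:**
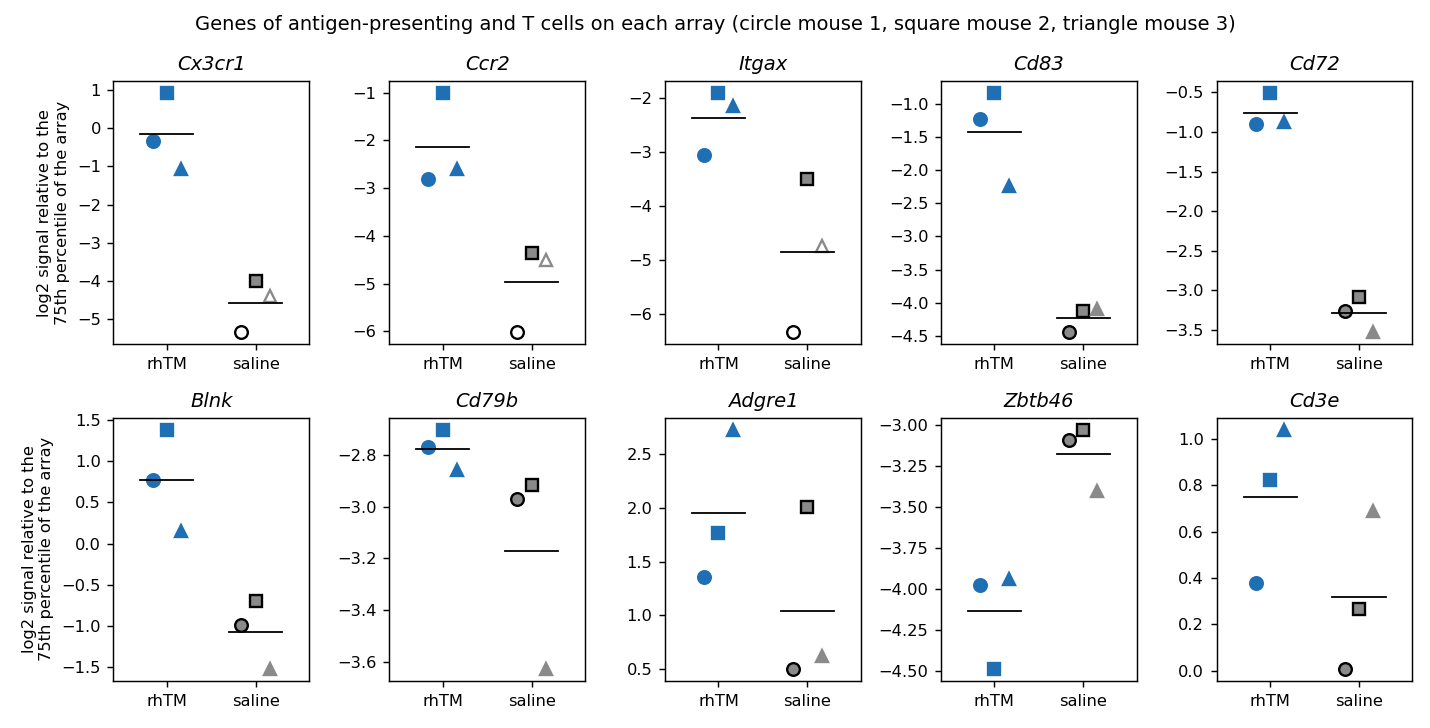
Log2 signal relative to the 75th percentile of the array (vertical axes, a separate scale per gene) for 10 genes of antigen-presenting and T cells, rhTM left and saline right, chosen after their values were seen. Lines are group means, black edges mark slide 1 and open symbols were not well above background. Cx3cr1, Ccr2, Itgax, Cd83, Cd72, Blnk and Cd79b lie higher on every rhTM array than on any saline array, and Zbtb46 lies lower.

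Monocyte markers were all tested, and 0 of 10 were called, where 2.75% of all genes tested were called higher and 2.41% lower. The median change was -0.43, and -0.69 when taken from saline 3. Their summed signal was 180 to 276 in rhTM hearts, against 317 to 343 in saline hearts. Ly6c2 and Ly6c1 were the brightest of the 10 markers in saline hearts (means 6.98 and 6.94), so the saline sum rests mostly on them. By means, 4 of the 10 markers lay higher in rhTM hearts and 6 lower, and monocyte numbers were not tested. Ly6c2 and Ly6c1, near-identical genes whose probes may share signal, differed by -1.38 ± 0.33 and -1.31 ± 0.31 (limma adjusted p 0.0631 and 0.0604). The chemokine receptor gene Ccr2, named after its values were seen, lay the other way, at -2.81, -1.01 and -2.60 in rhTM hearts, against -6.02, -4.35 and -4.51 in saline hearts. On saline 1 and 3 it was not well above background, so that Ccr2 entered the test only through the rhTM arrays. Its change of 2.82 ± 0.63 was not called (limma adjusted p = 0.0535), and it passed once the replicate number was a term (adjusted p = 0.0391). Vcan, a matrix proteoglycan gene in the same list, differed by -1.47 ± 0.44 (limma adjusted p = 0.0935) and also passed with that term, as lower (adjusted p = 0.0391).

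Of 12 dendritic cell markers 8 were tested and 0 were called, with a median of 0.51, against -0.28 when taken from saline 3. The summed signal was 214 to 252 in rhTM hearts, against 109 to 207 in saline hearts, but Siglech alone made up 98.7% to 99.3% of it. Siglech differed by 0.76 ± 0.29 and the actin-bundling gene Fscn1 by -1.07 ± 0.31 (limma adjusted p 0.138 and 0.0860). The other probe of Siglech differed by -0.06 and did not clear background on any array, so the sum rests on a single probe. Clec9a did not clear background on any array, and Xcr1 was so on 1 array of each group. Zbtb46, a factor of classical dendritic cells, and Itgax, the CD11c integrin chain, were named after their values were seen. Zbtb46 differed by -0.96 ± 0.23 and Itgax by 2.48 ± 0.72, neither called (limma adjusted p 0.0628 and 0.0863). Itgax was well above background on saline 2 alone among saline arrays, so that it entered the test only through the rhTM arrays. It passed once the replicate number was a term (adjusted p = 0.0462).

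Of 12 B cell markers 7 were tested, with a median of 0.88, and 0.61 when taken from saline 3. Of the 7, 2 were called higher, where 2.75% of all genes tested were, and 0 lower, where 2.41% were. Cd72, a coreceptor of B cells that macrophages can also express, read -0.90, -0.51 and -0.87 in rhTM hearts, against -3.26, -3.08 and -3.53 in saline hearts. It rose by 2.53 ± 0.21, or 5.77-fold (limma adjusted p = 0.0129), and kept its call with a slide term (0.0210) and with a replicate term (0.0390). Its other probe differed by 1.58. Blnk, an adaptor of B cell receptor signalling, rose by 1.84 ± 0.37, or 3.58-fold (limma adjusted p = 0.0456; 0.0550 with a slide term). The coreceptor genes Cd22 and Cr2 differed by 1.16 ± 0.27 and 0.85 ± 0.31 and were not called (limma adjusted p 0.0602 and 0.128). Defining B cell genes were low: Ms4a1 and Fcrla did not clear background on any array, and Cd79a did so on 1 rhTM array alone. The summed signal was 3.38 to 5.21 in rhTM hearts, against 1.46 to 1.78 in saline hearts, and the part of B cells in the class II values was not tested.

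Of 12 T cell markers 8 were tested and 0 were called, with a median of 0.91, against 0.20 when taken from saline 3. The costimulatory receptor gene Cd28 differed by 0.74 ± 0.33 (limma adjusted p = 0.180) and was called with a slide term (1.41 above saline 3, adjusted p = 0.0397). The adhesion receptor gene Cd2 differed by 1.80 ± 0.46 (limma adjusted p = 0.0703) and was called with a replicate term (adjusted p = 0.0436). On saline 1 it was not well above background, so that Cd2 entered the test only through the rhTM arrays and its size depends on background. Cd4, which binds class II molecules on helper T cells, read 1.76, 2.41 and 1.80 in rhTM hearts, against 0.20, 0.12 and 1.86 in saline hearts. Saline 3 lay above rhTM 1 and 3, and the change of 1.26 ± 0.50 was not called (limma adjusted p = 0.147). The receptor subunit gene Cd247 differed by 2.05 ± 1.00 (0.211 by limma), and saline 3 read 2.97, against -0.95 and -0.41 in saline 1 and 2. The summed signal was 11.6 to 15.8 in rhTM hearts, against 3.38 to 13.8 in saline hearts.

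Neutrophils, which enter the heart after LPS and make little class II, showed lower values in most markers, and saline 3 and rhTM 3 held the highest signal of their groups. The summed signal of 9 measured markers was 104, 85.0 and 493 in rhTM hearts, against 137, 219 and 1056 in saline hearts. Of these genes 1 was called lower, where 2.41% of all genes tested were. It was Cd177, at least 2.70-fold lower in rhTM hearts since no rhTM array read its probe well above background (limma adjusted p = 0.0212). Cd177 entered the test only through the saline arrays, where it was high, and its adjusted p rests on rhTM values near background. S100a9 differed by -3.52 ± 2.01 and Csf3r by 0.18 ± 0.18, neither called (limma adjusted p 0.270 and 0.515). The array with the highest class II values, rhTM 2, had the lowest neutrophil sum. Among saline arrays it was the other way, as saline 1 had both the lowest mean class II profile (-1.09) and the lowest neutrophil sum (137). The part of neutrophils in the class II values was not tested. Retnlg, a neutrophil granule gene, differed by -4.66 ± 1.93 (limma adjusted p = 0.160) and was called lower with a replicate term (adjusted p = 0.0466). Among structural cells, 1 of 10 cardiomyocyte markers was called higher, where 2.75% of all genes tested were. It was Pln (1.35 ± 0.28, limma adjusted p = 0.0478), the inhibitor of the calcium pump. Myh6 and Myl2 differed by 0.72 ± 0.20 and 0.64 ± 0.20 (limma adjusted p 0.0787 and 0.0986), and the summed signal was 3067 to 4484 in rhTM hearts, against 2268 to 3107 in saline hearts. Endothelial markers gave 0 calls of 10, with Egfl7 at -0.27 and Vwf at -0.89 (limma adjusted p 0.373 and 0.210). Fibroblast markers gave 1 lower call of 10, where 2.41% of all genes tested were called lower. It was Pdgfrb (which fell by 1.00 ± 0.19, limma adjusted p = 0.0427), a call lost with a slide term (0.0686) and with a replicate term (0.0554). Dcn differed by 0.34 and Col1a2 by -0.56 (limma adjusted p 0.267 and 0.232). Of the same list, the matrix gene Fbln1 differed by 1.36 ± 0.44 (limma adjusted p = 0.109). With a slide term Fbln1 was called (2.21 above saline 3, adjusted p = 0.0494). Lum differed by 1.22 ± 0.27 (limma adjusted p = 0.0543) and was called with a replicate term (adjusted p = 0.0431). The part of these cell types in the class II values was not tested.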

How the data were processed

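Cy3-labelled cRNA from total RNA of 6 hearts, 1 mouse per array, was hybridised to 1-colour Agilent mouse arrays, 3 rhTM and 3 saline by the sample titles. The authors deposited the scanner files, whose intensity values come from version 10.7.3.1 of Agilent Feature Extraction per the file headers (the submitters' processing notes name 9.1). The processed signal is background-corrected within an array and not normalised between arrays. A value table on a log2 scale was also deposited, whose centring is not given in the sources used here. Compared with the scanner values, its baseline per probe was shared by arrays of 1 slide (SD of the difference 0.000757 to 0.00143) and differed between slides (SD 0.825, 56237 probes), so it was used only with the slide as a block. Its column medians were -0.08, 0.03 and 0.09 for rhTM 1 to 3 and -0.02, -0.16 and 0.10 for saline 1 to 3.

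Each log2 signal had its array's 75th percentile subtracted (463, 466 and 412 units in rhTM 1 to 3; 732, 671 and 394 in saline 1 to 3). Unflagged spots of a probe were averaged and 368 probes were left out. Of the rest 32789 matched a symbol through unversioned accessions in a RefSeq table of GRCm38.p6 and 23448 did not. The array grid is of build mm9, so no probe coordinates are given. Of several probes of a gene the brightest on average was kept. The rhTM and saline groups were compared in limma 3.58.1 in R 4.3.3, with calls at an adjusted p under 0.05, after the fit was tested on simulated data. A fold given as "at least" sets the brighter group's mean over a floor, taken on each dim array as its lowest signal well above background, or as the probe's own signal where that was greater. The number of arrays limits precision, and the labels name separate mice.

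The genes and lists were chosen with earlier results of these data known. Named genes are the 10 class II genes, the called members of each list with the 2 brightest uncalled ones, and the 5 genes closest in profile. Any other gene was named after its values were seen, and 1 marker is not reported here. Mice share numbers 1 to 3 across groups, and once group means were removed, arrays of the same number correlated at 0.319, 0.235 and 0.372 over 14701 genes, which are not independent replicates. By this measure, each being over 0.1, the numbers were treated as pairs in an alternative fit. The pairing comes from the data alone, and rhTM 2 correlated more with saline 1 (0.314). The scanner files used here give a median but no mean spot signal, so normexp was run on medians.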

Additional observations from a re-analysis of the deposited data

How the results depend on the processing

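The 9 tested class II genes kept a change above 0 under each of the 16 alternatives in which they were fitted (6 genes among those well above background on all arrays). The alternatives reuse the same arrays, and Ciita, H2-DMa and H2-Ob had passed the filter through their rhTM values. Their direction is therefore no separate evidence. The number called higher was 0 with no filter on dim probes, with the mean of all probes of a gene, with a slide term and with the deposited table fitted with a slide term. It was 2 with the replicate block, 8 with array weights and 0 to 6 when 1 array was left out, against 1 as reported. With normexp, and in a fit limited to genes that all 6 arrays detected, it was also 1, but the gene was H2-Ab1 (adjusted p = 0.0457) and H2-Aa (0.0497) in place of Ciita. None was called lower under any alternative run. Over all genes, 200 were called higher and 212 lower with normexp, 132 and 19 with no filter on dim probes, and 4663 and 4581 with array weights, against 405 and 355. Leaving out 1 array gave 2 to 2974 higher and 0 to 2818 lower. Median centring called 483 higher and 268 lower, as against 405 and 355. Ciita was called in 2 of 6 fits without 1 array and in 3 of 9 other alternatives. The replicate block changed no call of the class II genes other than those of Ciita, H2-Ab1 and H2-Eb1. Signal near background limits H2-Oa, H2-Ob, H2-DMa and Ciita, and the cause of these differences was not tested.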
